A study of Drosophila melanogaster with 24 samples.

Results

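The thioester-containing protein genes of *Drosophila melanogaster* were taken by name from the tables of injured against uninjured flies. The rule asked for *TepI*, *TepII*, *TepIII*, *TepIV* and *Mcr*, which the tables write as *Tep1*, *Tep2*, *Tep3*, *Tep4* and *Mcr*, 5 of the 12506 gene symbols listed in at least 1 table. *Tep2*, *Tep3*, *Tep4* and *Mcr* were listed in all 4 tables, and *Tep1* was listed in older food alone. All 5 genes lie on chromosome arm 2L, with the identifiers FBgn0041183 for *Tep1*, FBgn0041182 for *Tep2*, FBgn0041181 for *Tep3*, FBgn0041180 for *Tep4* and FBgn0267488 for *Mcr*.

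RNA was taken from whole male flies of the *w1118* stock, whose mutant eye color gene *white* was common to injured and uninjured flies. Flies aged 0 to 7 days are called younger, and those aged 20 to 27 days older. Injured flies were struck repeatedly in the HIT (high impact trauma) device and uninjured flies were not, and flies were then kept on water alone until 2 hr or on food until 4 hr afterward. Crossing age with diet gave 4 conditions, younger water and younger food, then older water and older food. Each condition had 6 libraries of its own, 3 of injured and 3 of uninjured flies, which makes 24. Diet and time after injury therefore differed together and cannot be told apart.

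Thioester-containing proteins belong to the family of vertebrate complement factors and alpha-2-macroglobulin. The name comes from a strained thioester bond inside the protein which, once exposed by cleavage, can bind covalently to a nearby surface. In insects such proteins are secreted into the hemolymph by the fat body and by hemocytes, the blood cells, and in the mosquito *Anopheles gambiae* the protein TEP1 marks malaria parasites for killing. In cultured *Drosophila* cells *Tep2* and *Tep3* were needed for efficient uptake of different bacteria and *Mcr* for uptake of a yeast, and *Tep1* is known to be raised by activated JAK/STAT signaling. *Mcr* (Macroglobulin complement-related) encodes a family member without the thioester cysteine, and it is also a component of septate junctions, the barrier-forming contacts between epithelial cells.

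For each gene the tables gave a log2 fold change (injured over uninjured), the mean expression over the 6 libraries of a condition on the log2 scale of counts scaled to library size (log2 CPM) and a likelihood ratio statistic. No values per library were analysed here, so neither the depth of the libraries nor the overlap of single libraries is known. The standard error (SE) of a fold change was worked back as its size divided by the square root of the statistic, and 95% intervals follow from it. Over all genes the median SE on water was 0.190 in younger and 0.191 in older flies, and on food it was 0.119 and 0.108, so fold changes on food were the more precise. For younger flies the tables listed 12187 genes on water and 12276 on food, and for older flies 11663 and 11955. A gene is said to have risen when its adjusted p (Benjamini-Hochberg, over every gene of the table) was at most 0.05, and is called up-regulated when its fold change was also over 2.

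Primary injuries were followed by higher levels of *Tep2* in every condition, of *Tep4* in every condition and of *Tep3* in every condition but younger food, while *Mcr* passed the threshold in older food alone. Up-regulated were 2 of 4 listed members in younger water (*Tep2* and *Tep4*), 1 of 4 in younger food (*Tep2*), 2 of 4 in older water (*Tep2* and *Tep4*) and 3 of 5 in older food (*Tep1*, *Tep2* and *Tep4*). Of all genes, 2.59% were up-regulated on water and 0.766% on food in younger flies, and 3.47% and 1.64% in older flies. By adjusted p alone, 3 and 2 members rose in younger flies on water and food, where 6.4% and 4.72% of all genes rose, and 3 and 5 in older flies, where 9.6% and 12.7% of all genes rose. No member fell, and all 17 fold changes were above 0. For the listed members the median log2 fold change was 1.23 on water and 0.42 on food in younger flies. In older flies it was 0.89 on water and 1.04 on food, and medians over all genes lay between -0.01 and 0.05. The older food median is over 5 members, since *Tep1* was listed there alone, and the other medians are over 4. The 2 medians of older flies are therefore not over the same genes. In older food the 4 genes listed throughout had 1.29 (*Tep2*), 0.75 (*Tep3*), 1.04 (*Tep4*) and 0.51 (*Mcr*).

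**Figure D1:**
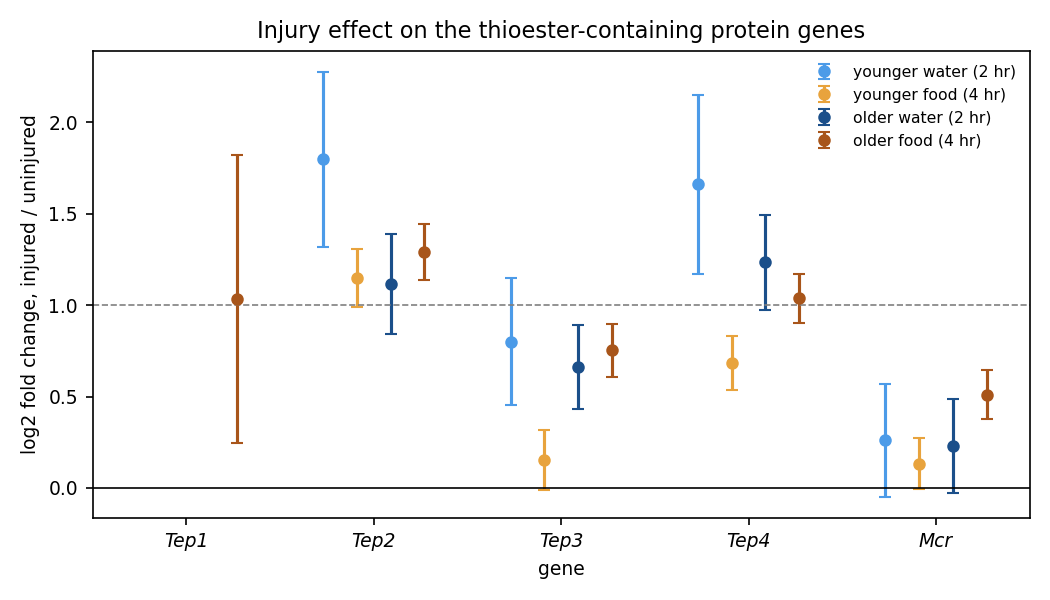
Injury effect as a log2 fold change, injured over uninjured (y axis), for each thioester-containing protein gene (x axis) in the 4 conditions, with bars for the approximate 95% interval and a dashed line at a fold change of 2. *Tep2* lies above that line in all 4 conditions, *Mcr* lies below it in all 4, and *Tep1* has a single value, 1.04 in older food.

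*Tep2*, the family member tied to uptake of bacteria, was the only one up-regulated in all 4 conditions. Levels of each arm were worked back from the mean and the fold change, taking the libraries of both arms as equally weighted. In younger water *Tep2* went from 151 CPM in uninjured flies to 526 CPM in injured flies, a log2 fold change of 1.80 (SE 0.24, adjusted p = 2.51e-11 by the likelihood ratio test). The younger food levels were 156 and 346 CPM, a log2 fold change of 1.15 (SE 0.08). Levels in older water were 183 and 398 CPM (log2 fold change 1.12, SE 0.14), and those in older food were 164 and 401 CPM (log2 fold change 1.29, SE 0.08). The 4 uninjured levels of *Tep2* thus lay within 0.28 log2 units of each other, and the 4 injured levels within 0.60. As a check, p was taken for the same statistic from an F distribution (1 and 4 degrees of freedom), with the authors' fit left unchanged. With the F distribution the calls of *Tep2* in younger water, younger food and older water were lost (adjusted p = 0.269, 0.118 and 0.0725). The call in older food was kept with the F distribution (adjusted p = 0.0239).

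*Tep4* was the most abundant of the 5 genes and showed the widest range of injury effects. From 200.7 CPM in uninjured flies of younger water it reached 635 CPM in injured flies, a log2 fold change of 1.66 (SE 0.25, adjusted p = 2.84e-09 by the likelihood ratio test). In younger food the corresponding levels were 215 and 346 CPM, a log2 fold change of 0.68 (SE 0.07) that rose without reaching a fold change of 2. The older water levels of *Tep4* were 252 and 593 CPM, with a log2 fold change of 1.23 (SE 0.13). The older food levels were 238 and 488 CPM, where the log2 fold change of 1.04 (SE 0.07) exceeded the fold-change minimum by less than 1 SE. Uninjured levels of *Tep4* spanned 0.33 log2 units over the tables and injured levels 0.88, so most of the variation between conditions was in the injured arm. With the F distribution the calls of *Tep4* in both water conditions were lost (adjusted p = 0.277 in younger water and 0.0638 in older water), as was its rise in younger food (adjusted p = 0.150).

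*Tep3*, which lies next to *Tep2* and was tied to uptake of other bacteria, changed by less than 2-fold throughout. It rose in younger water, with worked-back levels of 64.9 and 113 CPM and a log2 fold change of 0.80 (SE 0.18, adjusted p = 0.000221 by the likelihood ratio test). It also rose in older water, from 80.8 to 128 CPM (log2 fold change 0.66, SE 0.12), and in older food, from 83.0 to 139.9 CPM (log2 fold change 0.75, SE 0.07). In younger food its levels were 104 CPM in uninjured and 116 CPM in injured flies, a log2 fold change of 0.15 with a 95% interval from -0.01 to 0.32 (adjusted p = 0.357 by the same test). In contrast with *Tep2* and *Tep4*, the injured levels of *Tep3* were close to each other in all conditions, within 0.31 log2 units, while its uninjured levels spanned 0.68 and were highest in younger food. With the F distribution *Tep3* did not pass in younger water and older water (adjusted p = 0.358 and 0.110). Whether the tables were normalized together or separately is not known, so levels set side by side across conditions are a description without a test.

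*Mcr*, the member with a role in septate junctions, had the smallest fold change of the listed members in every condition. In older food it rose from 140.4 to 200.0 CPM, a log2 fold change of 0.51 (SE 0.07, adjusted p = 7.86e-13 by the likelihood ratio test). The log2 fold change was 0.26 in younger water (95% interval -0.05 to 0.57), 0.13 in younger food (-0.01 to 0.27) and 0.23 in older water (-0.03 to 0.49), none past the threshold (adjusted p = 0.444, 0.330 and 0.272 by the same test). The interval in younger water included the value of older food, and the difference between these 2 conditions was not tested. Uninjured levels of *Mcr* were 84.6 and 104 CPM in younger flies on water and food, and 114 and 140.4 CPM in older flies.

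*Tep1* was close to the lower limit of the tables. Its mean expression in older food was 0.54 log2 CPM, where 1.82% of the listed genes had a lower value, and the worked-back levels were 0.950 CPM in uninjured and 1.95 CPM in injured flies. The log2 fold change of 1.04 carried an SE of 0.40 and a 95% interval from 0.25 to 1.82 (adjusted p = 0.0413 by the likelihood ratio test). This call was lost when p-values were adjusted over all 4 tables together (adjusted p = 0.0649), with the F distribution (adjusted p = 0.256) and at an FDR of at most 0.01. The authors removed genes with low or empty values before testing, so *Tep1* has no value in the other conditions and its effect there was not analysed here.

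**Figure D2:**
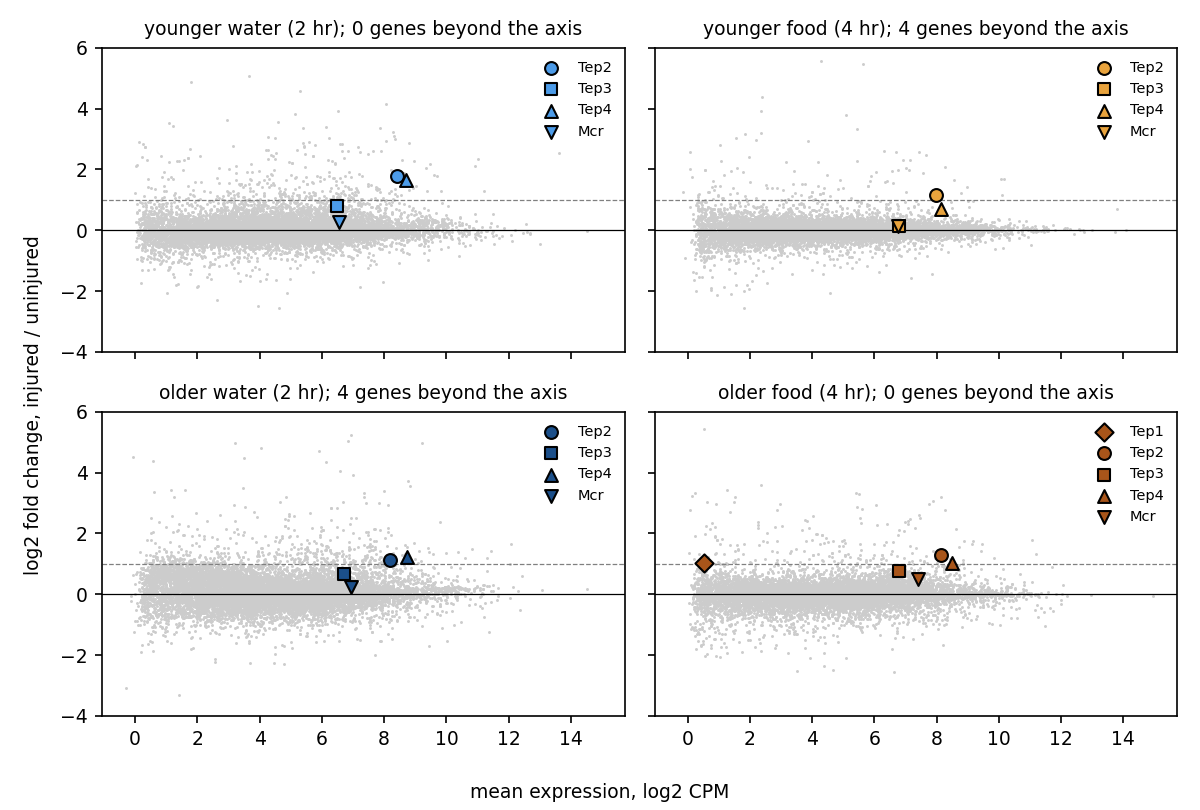
Injury effect as a log2 fold change, injured over uninjured (y axis), against mean expression in log2 CPM (x axis) for every listed gene (grey) in each condition, with the thioester-containing protein genes as large symbols and a dashed line at a fold change of 2. *Tep2* and *Tep4* lie at the right of each panel, with mean expression from 7.97 to 8.72 log2 CPM, and *Tep1* lies at the far left of older food.

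Levels were compared between genes per kilobase of the longest annotated transcript, which runs from 4.22 kb for *Tep1* to 6.30 kb for *Mcr*. On this scale *Tep4* had the highest mean level in every condition, from 5.89 to 6.48 log2 CPM per kb, followed by *Tep2*, from 5.78 to 6.21. The step from *Tep2* down to the next gene was the largest among the 4 genes listed throughout, between 1.19 log2 units in older food and 2.03 in younger water. *Tep4* and *Tep2* did not differ beyond the approximate error in younger water (difference 0.26, 95% interval -0.08 to 0.60) and differed in the other conditions. The order of *Tep3* and *Mcr* was not the same throughout, since *Tep3* was the higher by 0.29 in younger water and by 0.36 in younger food, the 2 genes were within error in older water (0.11, interval -0.06 to 0.28), and *Mcr* was the higher by 0.26 in older food. *Tep1* was 6.04 log2 units below *Tep3* in older food. These intervals take the errors of genes from shared libraries as unrelated. Summed over the listed members, the worked-back level went from 502 to 1376 CPM in younger water, from 580.0 to 922 in younger food, from 630.0 to 1252 in older water and from 626 to 1230.2 in older food. *Tep2* and *Tep4* made up 92.6%, 93.7%, 89.2% and 80.6% of these increases.

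**Figure D3:**
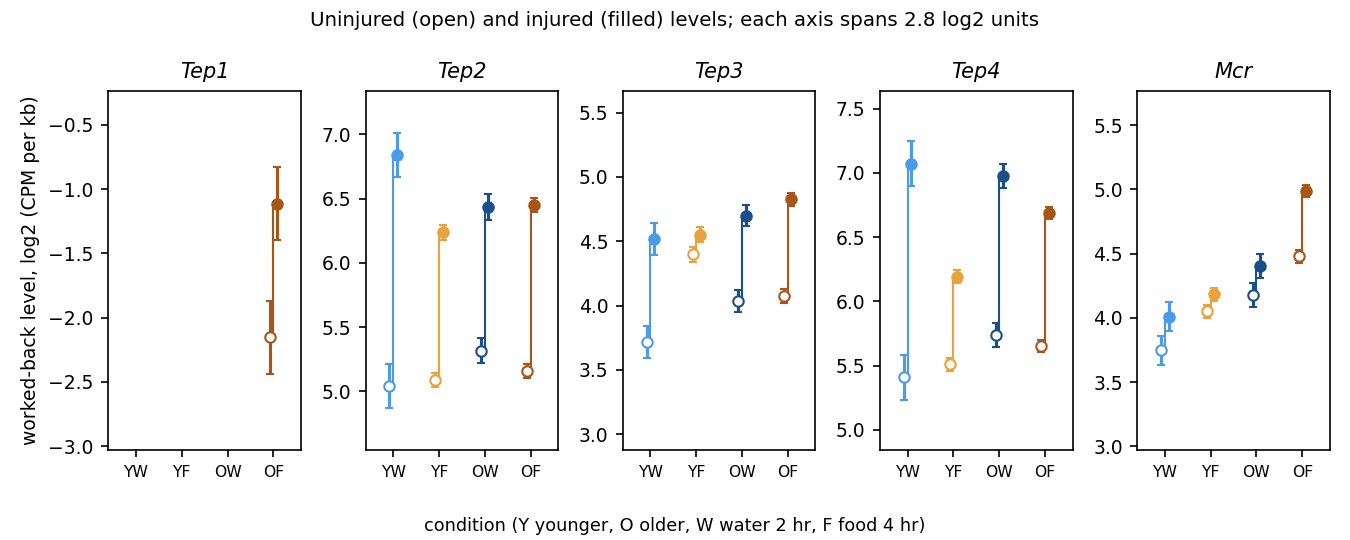
Worked-back levels in log2 CPM per kb (y axis) in uninjured (open) and injured (filled) flies for each gene and condition (x axis; Y younger, O older, W water at 2 hr, F food at 4 hr), with bars of 1 approximate SE; the axes differ in position but all span 2.8 log2 units. For *Tep3* the open circles spread more than the filled ones (0.68 against 0.31 log2 units), and for *Tep4* the filled ones spread more (0.88 against 0.33).

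Whether diet with time changed the injury effect was tested by dividing the difference of 2 log2 fold changes by its approximate SE, with adjustment over all genes listed in both tables. In younger flies *Tep4* had a larger effect on water at 2 hr than on food at 4 hr, by 0.98 log2 units (SE 0.26, adjusted p = 0.0157 by this test). The differences were in the same direction for *Tep3* (0.65, SE 0.20, adjusted p = 0.0538 by this test) and *Tep2* (0.65, SE 0.26, adjusted p = 0.284 by this test), neither of which passed. That of *Mcr* was 0.13, with a 95% interval from -0.21 to 0.47. Thus 1 of 4 members passed, where 1.8% of all genes did in either direction. In older flies the differences between water and food were -0.17 for *Tep2*, -0.09 for *Tep3*, 0.20 for *Tep4* and -0.28 for *Mcr*, and 0 of 4 passed by the approximate test (0 of 4 also at an unadjusted p under 0.05), where 6.8% of all genes did. The widest of these 4 intervals ran from -0.49 to 0.14, for *Tep2*. When a t distribution with 8 degrees of freedom replaced the normal one, *Tep4* no longer passed in younger flies (adjusted p = 0.499), and 0 of all genes passed there.

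Whether age changed the injury effect was tested in the same way. On food, all 4 members had a larger injury effect in older than in younger flies. The difference passed for 3 of 4, where 7.19% of all genes passed in either direction. The log2 fold change of *Tep3* was 0.15 in younger and 0.75 in older flies, a younger-minus-older difference of -0.60 (SE 0.11, adjusted p = 6.72e-06 by the approximate test). The difference was -0.38 for *Mcr* (SE 0.10, adjusted p = 0.00336 by this test) and -0.35 for *Tep4* (SE 0.10, adjusted p = 0.0103 by this test). *Tep2* did not pass (difference -0.15, 95% interval -0.36 to 0.07). With the t distribution 0 of these 4 passed after adjustment and 3 had an unadjusted p under 0.05, *Tep3* having the lowest adjusted p, 0.0542, while 134 of all genes passed. On water, all 4 differences were above 0, that is, larger in younger flies, and 0 of 4 passed by the approximate test (1 at an unadjusted p under 0.05), where 0.694% of all genes passed. The largest was that of *Tep2*, 0.68 with a 95% interval from 0.13 to 1.23 (adjusted p = 0.408 by this test), and that of *Tep4* was 0.43 with an interval from -0.13 to 0.98.

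**Figure D4:**
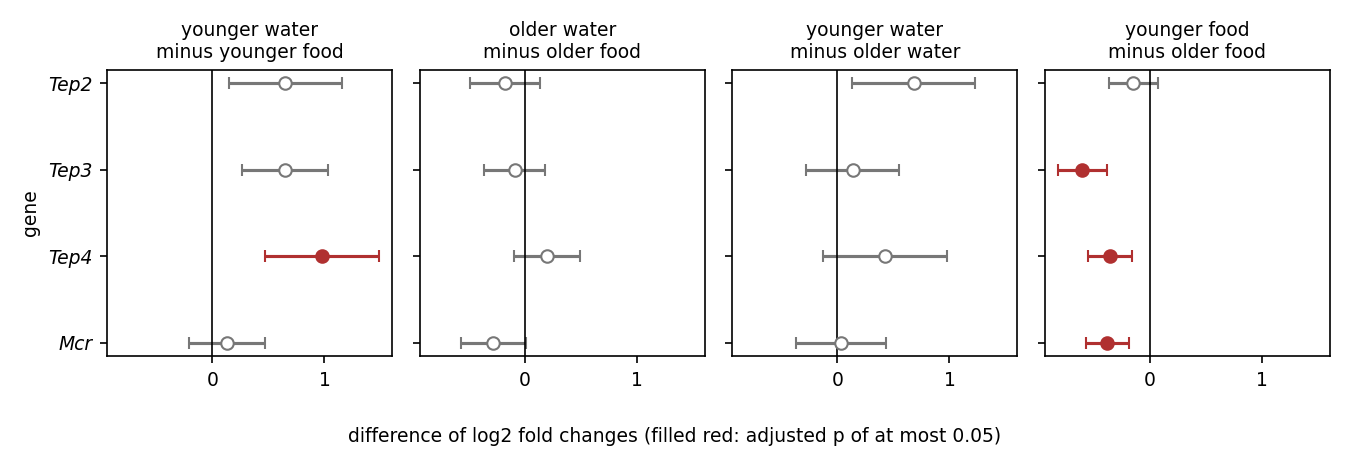
Difference of the injury effect between 2 conditions in log2 units (x axis), with approximate 95% intervals, for the 4 genes listed in all tables (y axis); filled red symbols passed after adjustment over all genes. The passing differences are *Tep4* in younger water minus younger food (0.98) and *Tep3*, *Tep4* and *Mcr* in younger food minus older food (-0.60, -0.35 and -0.38).

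Whether the water-minus-food difference itself depended on age was tested over the genes listed in all 4 tables. It was larger in younger flies by 0.83 log2 units for *Tep2*, 0.74 for *Tep3*, 0.78 for *Tep4* and 0.41 for *Mcr*, each with an SE from 0.23 to 0.30. None of the 4 passed after adjustment (adjusted p from 0.139 to 0.754 by the approximate test), 3 had an unadjusted p under 0.05, and 0.716% of all genes passed.

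Markers of cell types and of sex were read from the same comparisons. Markers of hemocytes, a source of these proteins, had a summed worked-back level that went from 501 to 396 CPM in younger water, from 401 to 310.1 in younger food, from 716 to 419 in older water and from 572 to 344 in older food. Of 11 hemocyte markers, all listed in every table, 1, 5, 8 and 7 fell by adjusted p in the same order, where 1.8%, 3.51%, 7.13% and 12.3% of all genes fell, and 0 rose. The fat body markers were represented by 6 genes in both younger tables, by 3 in older water and by 2 in older food. By adjusted p 0 of them rose in any table, while 1, 1, 2 and 1 fell in the same order. Those with a log2 fold change below 0 numbered 2, 5, 2 and 2. The medians of these markers were 0.08, -0.26, -0.81 and -0.60 in that order. *Rfabg*, the hemolymph lipoprotein that dominates their sum, changed on the log2 scale by -0.83 and -0.02 in younger flies on water and food and by -1.24 and -1.06 in older flies, and *Lsp1alpha* was listed in none. In bulk flies, fewer cells of a type and less RNA per cell cannot be told apart. Injured flies of younger food also carried RNA of female type, as all 4 listed yolk and eggshell genes were up-regulated there and their sum went from 10.8 to 309 CPM. All 6 male markers of the accessory gland and testis were listed in every table. By adjusted p 2 of them rose in older water, 1 rose in each food condition and 0 fell. By this measure the rising share of all genes was 9.6% for the older water table. For the food tables, younger first, that share was 4.72% and 12.7%. Of the 4 listed neuron and eye markers, 3 fell in older water, where their sum went from 6522 to 4589 CPM, and 1 fell in older food. Of the 4 muscle markers, 1 rose in each older table and 0 fell. None of these male, neuron, eye and muscle markers was up-regulated or down-regulated by over 2-fold. In older water *Yp1* was up-regulated (4.47) and the sum of the 2 listed yolk genes went from 20.0 to 49.1 CPM. The part of these cell type and sex markers in the values of the thioester-containing protein genes was not tested.

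JAK/STAT and Toll signaling are immune pathways under which *Tep1* is known to rise in *Drosophila* larvae, and their components were read from the same tables. Of the JAK/STAT list, 10 genes were listed in younger food and 11 in each of the other tables. In the order younger water, younger food, then the same for older flies, 2, 1, 4 and 3 were up-regulated and 0 down-regulated. Of all genes, 2.59%, 0.766%, 3.47% and 1.64% were up-regulated in that order. By adjusted p alone, 3, 2, 4 and 5 of the list rose and 0, 0, 1 and 0 fell. Of all genes, 6.4%, 4.72%, 9.6% and 12.7% rose by this measure. The up-regulated genes were the ligands *upd3* (log2 fold change 3.53 in younger water, then 2.93 and 1.42 in older flies on water and food) and *upd2* (3.44 and 2.35 in older water and older food), the receptor *dome* in older water (1.31) and the feedback inhibitor *Socs36E* in every condition (1.07 to 2.19). *upd3* was not listed in younger food, nor was *upd2* in either younger table. The transcription factor *Stat92E* had log2 fold changes of 0.05 and 0.07 in younger flies on water and food and of 0.12 and -0.003 in older flies. The medians of the list were 0.06, 0.08, 0.14 and 0.17.

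All 18 Toll pathway genes were listed in every table, and 0 were down-regulated. Those up-regulated numbered 8 on water and 1 on food in younger flies, and 6 on water and 1 on food in older flies. Of all genes, 2.59% and 0.766% were up-regulated in younger flies, and 3.47% and 1.64% in older flies. By adjusted p alone, 12, 9, 10 and 10 Toll genes rose in the same order, and 0, 1, 1 and 3 fell. Of all genes, 6.4%, 4.72%, 9.6% and 12.7% rose, and 1.8%, 3.51%, 7.13% and 12.3% fell. The medians of the Toll list were 0.89, 0.32, 0.54 and 0.33 in that order. This list, like *Tep2*, *Tep3* and *Tep4*, had its highest value in younger water. For *Tep3* the log2 fold change there was 0.80 (SE 0.18), beside 0.75 (SE 0.07) in older food. Between younger water and older water 0 of 4 members differed by the approximate test, and a link to the Toll list was not tested. The recognition protein *PGRP-SA* was the 1 gene up-regulated on food, in both younger and older flies. Its log2 fold change was 1.65 in both food conditions and 2.91 in younger water. The next largest in younger water were the protease inhibitor *nec* (1.54), the protease *spirit* (1.47), the ligand *spz* (1.44), the inhibitor *cact* (1.30) and the kinase *pll* (1.28). In younger food these 5 genes lay between 0.21 and 0.78.

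Genes that share a known role with *Mcr* or with opsonins were read in the same way. The 24 septate junction genes were listed in every table, with 0 down-regulated in any. Up-regulated were 1 on water and 0 on food in younger flies, and 3 on water and 1 on food in older flies. By adjusted p alone 5, 3, 6 and 11 of them rose in that order, where 6.4%, 4.72%, 9.6% and 12.7% of all genes did, so older food had the highest share of rising genes overall. *Fas3*, a cell adhesion protein, was up-regulated in younger water (1.37), older water (1.27) and older food (1.07), and in older water so were *CG3921* (1.47) and *Gli* (1.07). Of 15 engulfment receptors and related genes, *nimB1* was up-regulated in all 4 conditions, with log2 fold changes of 1.42, 1.23, 1.03 and 1.10. The hemocyte receptors *Sr-CI*, *nimC1* and *eater*, which are also in the hemocyte list, were down-regulated in older water and older food, and *nimB4* was down-regulated in older food (-1.09). Of all genes, 0.451% and 0.375% were down-regulated in younger flies on water and food, and 1.06% and 1.21% in older flies. By adjusted p, 4, 3, 6 and 4 of these 15 genes rose in the order younger water, younger food, older water, older food. In that order 1, 2, 4 and 5 fell, where 1.8%, 3.51%, 7.13% and 12.3% of all genes did. The listed thioester-containing protein genes had log2 fold changes above 0 in every condition, while 0 of the 15 genes were down-regulated in younger flies. A relation between the 2 groups of genes was not tested.

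The genes most like each member were found by the Euclidean distance between their 4 log2 fold changes, over the 4 conditions and 11300 genes. Nearest to *Tep2* were *Sp212*, a serine protease (distance 0.34), *AnnIX*, an annexin (0.35), and *CG1299* (0.42). *Tep4* had *CG30151* (0.11), *CG4267* (0.16) and *Timp*, the inhibitor of matrix metalloproteinases (0.19), as its nearest. Those of *Tep3* were the recognition protein gene *PGRP-LA* (0.12), *CG1021* (0.14) and *h*, the repressor hairy (0.15), and those of *Mcr* were *wds* (0.10), the septate junction gene *Cont* (0.12) and the dynein heavy chain gene *Dhc64C* (0.12). Within the family, *Tep4* ranked 16th in closeness to *Tep2* (distance 0.56), while *Tep3*, the neighbor of *Tep2*, ranked 322nd (distance 1.57).

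*Tep2* and *Tep3* are transcribed away from each other with no protein-coding gene between them, and in the same arrangement *Tep4* stands beside *CG10337*. *Tep3* had the smaller injury effect of its pair in all 4 conditions, as given above. *CG10337* was up-regulated in younger water (log2 fold change 2.36, SE 0.26), older water (2.68, SE 0.15) and older food (1.44, SE 0.12), and rose by 0.84 (SE 0.17) in younger food, the condition in which *Tep4* also had its smallest effect. The remaining coding neighbors listed with values, *CG31735* beside *Tep1*, *CG43235* beside *Tep2*, *Ntl* beside *Tep3*, *Trf* and *Bsg* beside *Mcr*, and *CG13078* beside *Tep4*, did not rise in any table where they were listed, and in older food *CG43235* fell (-0.65) and *CG13078* was down-regulated (-1.77). *CG43235* overlaps the end of *Tep2* in the annotation used here, and the library kit does not mark strand, so reads of the overlap could belong to either gene. The mean expression of *CG43235* was 4.67 to 5.71 log2 CPM, below that of *Tep2* in every table.

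**Figure D5:**
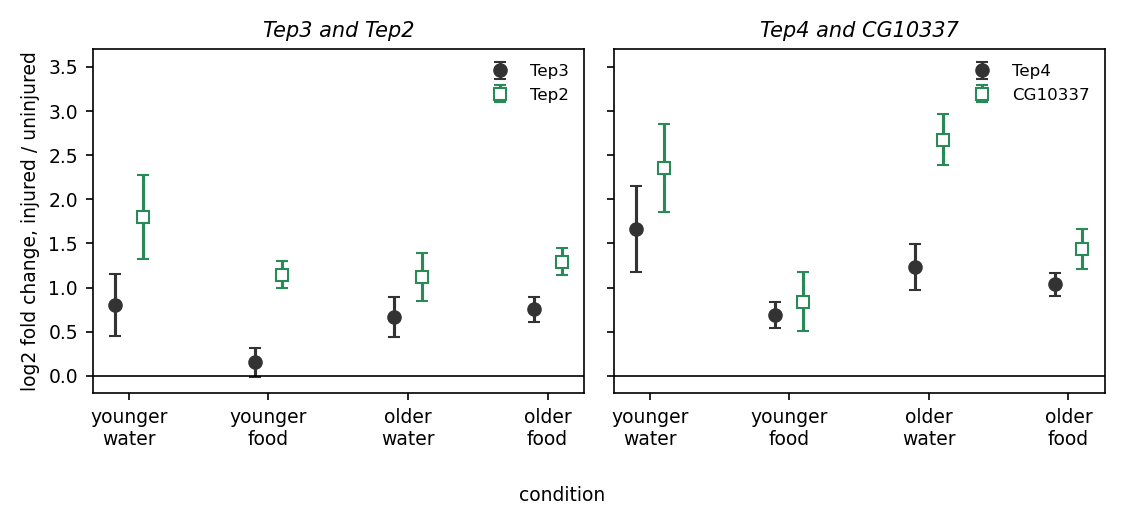
Injury effect as a log2 fold change, injured over uninjured (y axis), in the 4 conditions (x axis) for *Tep3* with its divergent neighbor *Tep2* (left) and *Tep4* with its divergent neighbor *CG10337* (right), with approximate 95% intervals. *CG10337* is highest in older water (2.68) and lowest in younger food (0.84).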

How the data were processed

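RNA-seq libraries of whole male flies were made by the authors with an Illumina TruSeq kit. Per the methods and the submitters' processing notes, the authors trimmed with Skewer, aligned to dm3 with STAR (2.4.2a), estimated expected counts with RSEM (1.2.22), dropped genes of low or no expression, and tested injury in edgeR (3.10.5). The annotation and the normalization are not given in the sources used here. The deposited tables hold these comparisons only, as a log2 fold change, a log2 mean CPM, a likelihood ratio score, and a p-value and FDR, all with 3 decimals, and 292 empty rows were left out.

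Here the p-value of each gene was recomputed from the deposited likelihood ratio (chi-square, 1 degree of freedom) and adjusted over its table, which differed from the deposited FDR by at most 0.0075. The injury effect of 2 conditions was compared with SEs obtained by dividing the size of the fold change by the root of its score (below 0.05, the median of genes nearest in expression was taken), two-sided, with a normal distribution and adjustment over all genes listed in both tables. This treats the dispersions as known, which can make p-values too small. The study describes the 3 libraries of a group as independent biological replicates, and the labels number them only. A model of counts per library was planned where counts were at hand and was not fitted, since the values used were comparisons.

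The text names the members, genes of the pathway and marker lists that were up-regulated or down-regulated (at most 6 a list, the largest first), the 3 nearest genes by fold changes among those with a median log2 CPM of at least 1, and the coding neighbors. *Stat92E*, *Rfabg* and *Lsp1alpha* were named after their values were seen. The members and lists were chosen with earlier results of these data known. Of 12506 symbols, 12491 matched the Release 6 annotation, which gave IDs, neighboring genes and transcript lengths and no coordinates. Alternatives covered thresholds, adjustment, expression minimum, scaling and reference distributions. Values were computed in Python 3.11.15 (scipy 1.17.1, pandas 2.3.3, numpy 2.4.6) and drawn with matplotlib 3.10.9.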

Additional observations from a re-analysis of the deposited data

Results flagged for a closer look

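The injury effect of 4 gene and comparison pairs differed between conditions, with the difference itself past the adjusted threshold of the approximate test. *Tep4* had a larger effect in younger water than in younger food, by 0.98 log2 units. On food the effect was larger in older than in younger flies for *Tep3* (younger minus older -0.60), *Mcr* (-0.38) and *Tep4* (-0.35). Injured flies of younger food, the condition shared by all 4 pairs, also held the yolk and eggshell RNA described above, and its part in these differences was not tested.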

How the results depend on the processing

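Among the counts of members, 39 of 48 alternative values stayed within 1.5 times the reported count. In younger food the count of up-regulated members went from 1 to 2 with a fold-change minimum of 1.5 or with none, and in older food from 3 to 5 with none. With the F distribution with 1 and 4 degrees of freedom it went to 0 in younger water, younger food and older water (3, 2 and 3 members at an unadjusted p under 0.05), where 0, 0 and 37 of all genes were up-regulated. With the t distribution with 8 degrees of freedom 0 members differed between younger water and younger food and 0 between younger food and older food (3 members in each at an unadjusted p under 0.05). With fold changes centred on the median gene, 2 members differed between younger water and younger food, *Tep3* being added (adjusted p = 0.0432 by the approximate test). For single members, 176 alternative values left the outcome, called or not called, as reported, 12 lost a call, 10 gained one and 0 changed direction. The 176 include genes not called under either setting. Rises short of a fold change of 2 that the F distribution lost are not counted among the 12. The settings of the age-by-diet comparison were chosen after seeing the data. No paired analysis was possible because the values used are comparisons without values per library, and for the same reason leaving out replicates, DESeq2, other count normalizations and a count filter were not run.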

Other observations

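Ranked by the likelihood ratio statistic within its table, *Tep2* was at place 76 of 12187 genes in younger water, 14 of 12276 in younger food, 212 of 11663 in older water and 33 of 11955 in older food. Ranked by fold change it was at place 102, 94, 382 and 130 in the same order. *Mcr* in older food, with a fold change of 1.43 (95% interval 1.30 to 1.56), was at place 656 by fold change and 469 by the statistic. The SE implied a coefficient of variation, counting noise included, of 20.7% for *Tep2* and 21.2% for *Tep4* in younger water. In the food conditions it lay between 5.76% and 6.84% for both genes. These values follow from the authors' fit, and the spread between single libraries was not measured.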
